A study of Mus musculus with 24 samples.

Results

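The 10 genes described here are long noncoding RNA genes with known roles or high levels in brain, H19, Bc1, Meg3, Neat1, Malat1, Miat, Rian, Mirg, Snhg11 and 1700016P03Rik, found by their GENCODE symbols among the 18647 genes of the count table. They were followed in microdissected hippocampal CA1 of mice after pilocarpine-induced status epilepticus (SE), the seizure state that starts epileptogenesis in this model. The series holds 24 polyA-selected RNA-seq libraries in 8 groups of 3, 5 SE groups taken from 6 h to 72 h (the others at 12 h, 24 h and 36 h) and 3 groups of non-SE controls (Ctr), of which the earliest was at 12 h, the next at 36 h and the last at 72 h. Every animal was a C57Bl/6N mouse at least 60 days old and received 1 mg/kg scopolamine methyl nitrate and 4 mg/kg diazepam, in SE animals 40 min after SE onset. SE animals received 335 mg/kg pilocarpine and were used only if SE developed, and Ctr animals received saline in its place. No Ctr group exists at 6 h or 24 h, so these SE groups were set against the mean of the 3 Ctr groups. All 10 members passed the filter on low counts, as did 18153 genes in all.

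The members were chosen by readout, with the SE against Ctr results of these libraries known. H19 was picked for its rise at 12 h and Bc1 for its fall at 72 h. All SE against Ctr values of the members are therefore a description with no test, and edgeR tests are given only between SE time points and between Ctr groups. The same libraries stand in both kinds of contrast, so the p-values of these tests are not independent of how the members were chosen.

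Long noncoding RNAs are transcribed and often spliced like mRNAs but are not translated. Some act in the nucleus, as Neat1 does as the scaffold of paraspeckles and Malat1 in nuclear speckles. Others are host transcripts from which small RNAs are cut: Rian carries snoRNAs, and Mirg, H19 and 1700016P03Rik carry microRNAs. Meg3, Rian and Mirg lie in a row on the maternally expressed strand of the imprinted Dlk1-Dio3 locus, and H19 is the maternally expressed partner of Igf2. Bc1 is a short RNA of neuronal dendrites that represses translation. Miat and Snhg11 are abundant in neurons.

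The small RNAs within the hosts are what the host changes bear on, so the mature sequences of the microRNA pair in 1700016P03Rik, of miR-134 from Mirg, of the Mirg pair that shares a seed and of miR-675 from H19 are shown, as RefSeq gives them on GRCm38.p6. Capitals mark the seed, bases 2 to 8.
miR-132-3p: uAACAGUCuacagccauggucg
miR-212-3p: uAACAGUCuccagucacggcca
miR-134-5p: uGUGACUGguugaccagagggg
miR-453: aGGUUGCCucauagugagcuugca
miR-496a-5p: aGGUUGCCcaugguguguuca
miR-675-5p: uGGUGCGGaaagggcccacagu
miR-675-3p: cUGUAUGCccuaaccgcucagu
The 3p arms of miR-132 and miR-212 share the seed AACAGUC, and the 2 Mirg microRNAs shown in a pair share GGUUGCC. Mirg overlapped 14 microRNA genes on its own strand, and their 26 mature sequences in RefSeq had 25 different seeds. Rian overlapped 4 microRNA genes and 13 snoRNA genes, and Meg3 overlapped 2 microRNA genes. The libraries measured polyadenylated RNA, so none of the values below is a level of a mature microRNA.

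Bc1 is the shortest member, 176 bases at chr7:144468199-144468374 on the plus strand of GRCm39. Its sequence in GENCODE M39 is shown because Bc1 has no long poly(A) tail and the libraries were selected with polyT beads, and the capitals mark the longest A-rich stretch, positions 85 to 125 of the transcript with 36 A in 41 bases.
Bc1: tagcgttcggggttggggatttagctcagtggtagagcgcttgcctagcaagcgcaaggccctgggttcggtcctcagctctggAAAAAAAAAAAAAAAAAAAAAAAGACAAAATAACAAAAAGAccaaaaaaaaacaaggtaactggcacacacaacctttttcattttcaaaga

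Library totals ran from 2663936 to 30133731 counts with a median of 13521590, and the 3 Ctr 72 h libraries held 11680209, 5793721 and 2663936. Ctr 72 h replicate 2 stood apart: its value of the factor of unwanted variation (0.802) was the highest, and its 10 sensory ganglion markers summed to 2040 CPM (counts divided by library size) against 11.1 to 88.1 in the other 8 controls. That sum also reached 388 to 1142 CPM in 5 of the 15 SE libraries. The CA1 pyramidal cell list (6 genes) summed to 384 to 1673 CPM and the dentate granule cell list (6 genes) to 35.1 to 311 CPM. GEO's sample descriptions carry a running number in 3 ranges, and all Ctr 72 h libraries fell in the last range (162-169) with no SE 72 h library, so that range and the group cannot be told apart at 72 h. All SE 24 h libraries fell in the first range (92-104) with no Ctr library. Range and group therefore cannot be told apart in SE 24 h against all Ctr either. The labels do not say whether replicates came from separate animals, and p-values then cover only the spread between these libraries.

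Meg3 had the highest mean CPM of the members in controls and was 2nd of all 18153 genes, although Bc1 was above it in Ctr 72 h replicate 3. Divided by exonic length, the order in controls differed. Bc1 had the highest median level, 6785 CPM per kb, followed by Snhg11 with 471, Meg3 with 339, Miat with 84.9, Malat1 with 50.1 and Rian with 29.1. Neat1 with 5.15, Mirg with 4.63 and 1700016P03Rik with 4.52 came next, and H19 was lowest at 0.0183. The ranges over the 9 controls overlapped between Snhg11 (347 to 479) and Meg3 (268 to 407) and among Neat1 (4.15 to 7.08), Mirg (3.59 to 5.67) and 1700016P03Rik (1.83 to 10.5). All other neighbours down to Rian and Neat1 were separate in every control library. Lengths are exonic lengths in GENCODE M39, and a 176-base RNA yields few full-size fragments. The place of Bc1 in this order is therefore not comparable to that of the long members. The order is also that of polyT-selected RNA, in which any transcript without a poly(A) tail is undercounted, whichever member it belongs to.

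**Figure D1:**
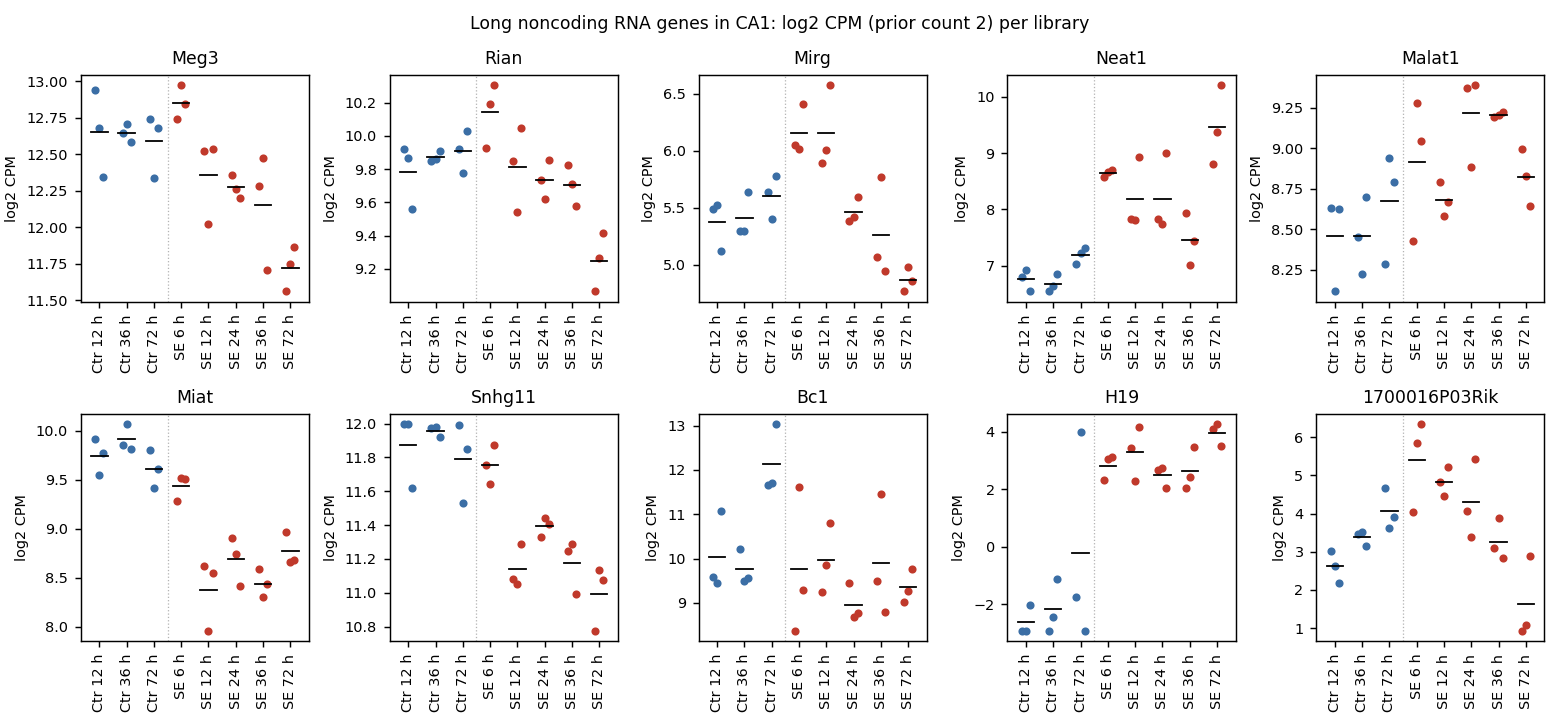
Level of each long noncoding RNA gene in every library, as log2 CPM with a prior count of 2 (vertical axes differ). Blue points are Ctr and red points SE libraries, 3 per group, and bars are group means. H19 was near 0 counts in 8 of 9 Ctr libraries and higher in every SE library, while Meg3, Rian, Mirg, Snhg11 and 1700016P03Rik were lowest at SE 72 h.

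A gene passed the threshold where its adjusted p did not exceed 0.05 and its log2FC was 0.66 or more in size, or 1 or more between SE time points. At 6 h 4 of 10 members passed as higher (H19, Neat1, Mirg, 1700016P03Rik), beside 15.8% of all genes, and 0 as lower, beside 6.21%. At 12 h the same 4 passed as higher, beside 13.9%, and Miat and Snhg11 as lower, beside 11.4%. At 24 h H19, Neat1, Malat1 and 1700016P03Rik passed as higher, beside 14.9%, and Miat and Bc1 as lower, beside 9.21%. At 36 h H19 and Malat1 passed as higher, beside 12.7%, and Miat and Snhg11 as lower, beside 8.91%. At 72 h H19 and Neat1 passed as higher, beside 15.2%, and Bc1, Meg3, Miat, Mirg, Snhg11 and 1700016P03Rik as lower, beside 4.2%. The median log2FC of the members was 0.36, 0.12, -0.06, -0.10 and -0.77 at these 5 times, and that of all genes was 0.06, 0.01, 0.04, 0.00 and 0.10. Since these contrasts chose the members, nothing is read from the counts. Among all 1811 genes annotated as lncRNA that were tested, 16.6% passed as higher and 5.41% as lower at 6 h, and 9.61% and 5.47% at 72 h.

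**Figure D2:**
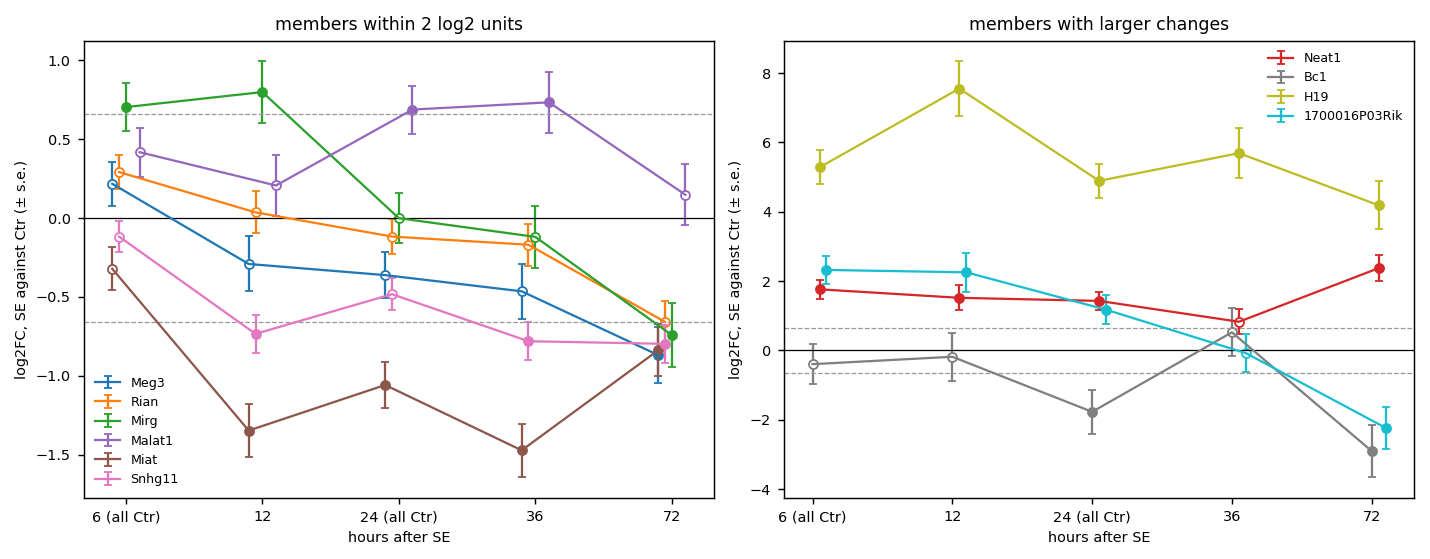
log2FC of SE against Ctr with its s.e. for each member at 5 times after SE (SE 6 h and 24 h against all Ctr, the others against Ctr of the same time, evenly spaced on the axis). Filled points passed the threshold, open points did not, and dashed lines mark 0.66. Miat and Snhg11 were at or below 0 at all 5 times, Mirg and 1700016P03Rik went from above to below 0, and H19 stayed above 4.

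H19, an imprinted RNA that is abundant in the embryo and nearly silent in adult tissue, went from almost no reads to clear expression after SE. It is annotated at chr7:142129262-142133957 (minus strand, GRCm39) with 2 exon blocks. In Ctr 12 h the libraries held 0, 0 and 3 counts, and in SE 12 h 10.7, 4.71 and 17.8 CPM. The pooled ratio at 12 h was 157 with an exact 95% counting interval of 53.5 to 764. At 36 h Ctr libraries held 0 to 4 counts and SE libraries 3.93, 5.20 and 10.9 CPM, a pooled ratio of 64.3 (27.3 to 199.5). These intervals cover counting error only. SE 6 h libraries held 4.79, 8.13 and 8.49 CPM and SE 24 h libraries 6.27, 6.49 and 3.99 CPM. Every SE library thus lay above those 6 controls. Of all genes, 24.5% lay wholly above Ctr 12 h at SE 12 h and 25.8% above Ctr 36 h at SE 36 h.

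At 72 h the comparison of H19 depended on which controls were kept. SE 72 h libraries held 16.9, 18.98 and 11.1 CPM, and Ctr 72 h libraries held 0.169, 15.7 and 0 CPM, the 15.7 being Ctr 72 h replicate 2. The pooled ratio was 3.22 (2.60 to 4.04) with that library and 108 (29.7 to 892) without it. The fitted log2FC was 4.19 (s.e. 0.69) and became 6.77 (s.e. 0.99) without Ctr 72 h replicate 2, 2.62 (s.e. 0.81) without Ctr 72 h replicate 1 and 1.52 (s.e. 0.88), below the threshold, without the factor of unwanted variation. Fitted folds of H19 at the other times, namely 5.28 (6 h), 7.56 (12 h), 4.89 (24 h) and 5.69 (36 h) as log2FC, rest on a prior count. In the 10 SE libraries whose sensory ganglion markers summed to under 100 CPM (at most 59.9 CPM), H19 ranged from 3.93 to 17.8 CPM. Its highest value in the 8 controls other than Ctr 72 h replicate 2 was 0.329 CPM. The 5 SE libraries with higher marker sums ranged from 8.49 to 18.98 CPM. Ctr 72 h replicate 2, with the 15.7 CPM of H19, had the highest marker sum of the controls. The part of the ganglion signal in the H19 level was not tested.

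Between SE time points H19 was higher at 72 h than at 24 h by a log2FC of 1.49 (s.e. 0.47, edgeR adjusted p = 0.0242). The groups did not overlap, and the share of all genes of which this holds was not computed. The call of H19 was lost on leaving out replicate 3 of SE 24 h (1.29) or replicate 1 (1.41) or 2 (1.35) of SE 72 h, without the factor of unwanted variation (1.48, s.e. 0.84) and on thinning to the smallest library total (1.45, s.e. 0.62). From 36 h to 72 h the log2FC was 1.31 (edgeR adjusted p = 0.0795). Igf2, the neighbouring imprinted growth factor gene 70545 bases away on the same strand, held 0 to 3.20 CPM over all libraries, and its log2FC passed the threshold at no time. Gm33148, which overlaps H19 on the opposite strand without sharing an exon, held 0 to 0.981 CPM.

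1700016P03Rik, the transcript that contains the activity-regulated microRNAs miR-212 and miR-132, was raised early and lowered late. It lies at chr11:75063301-75070543 (plus strand, GRCm39). SE 6 h libraries held 16.4, 57.2 and 80.8 CPM, SE 12 h 28.3, 21.7 and 37.1, and SE 24 h 16.6, 10.4 and 43.0 CPM. The first 2 of these groups lay above the Ctr 12 h libraries with 8.04, 6.08 and 4.41 CPM and the Ctr 36 h libraries with 10.9, 11.4 and 8.79 CPM, though not above every Ctr 72 h library. SE 36 h libraries, with 8.37, 14.6 and 6.95 CPM, overlapped their controls. At 72 h SE libraries held 1.78, 2.00 and 7.26 CPM, all below Ctr 72 h with 25.3, 12.3 and 14.998 CPM. Of all genes, 24.5% lay wholly above Ctr 12 h at SE 12 h and 13.4% wholly below Ctr 72 h at SE 72 h.

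The log2FC of 1700016P03Rik against Ctr was 2.32 (6 h, s.e. 0.40), 2.25 (12 h, s.e. 0.56), 1.18 (24 h, s.e. 0.42), -0.08 (36 h, s.e. 0.55) and -2.23 (72 h, s.e. 0.60). At 24 h SE replicate 3 decided the value, which was 0.36 without it, and the call was also lost without Ctr 12 h replicate 3 (1.103), with limma-voom (0.85), with the replicate block (1.03) and with the label number range as a factor (0.58). At 72 h the value was -1.08 (s.e. 0.52) and no longer passed with Ctr 12 h and Ctr 36 h in place of Ctr 72 h, a setting chosen after seeing the data, and it also did not pass without Ctr 72 h replicate 1 (-1.88), with limma-voom (-2.46, s.e. 0.95) or with the compared groups only (-2.23). From 24 h to 72 h within SE the fall was tested, on libraries also used to choose the members. The log2FC was -2.64 (s.e. 0.58, edgeR adjusted p = 0.00254), with no overlap of the groups, for which no share over all genes was computed. From 12 h to 36 h the log2FC was -1.56, which did not pass the threshold on the adjusted p.

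The genes that share exons with 1700016P03Rik in GENCODE M39 separated by strand. Mir212 (chr11:75064214-75064304) and Mir132 (chr11:75064508-75064573) lie in its exons on the same strand and are counted as genes of their own. The shared exons are those of GENCODE M39, while counting used M26 and skipped reads on exons of more than 1 gene. Reads counted for Mir212 or Mir132 therefore touched no exon of 1700016P03Rik in the annotation used for counting. Mir132 held 0 to 0.904 CPM in the 9 controls and 5.03, 12.7 and 15.4 CPM at SE 6 h, and its log2FC was 5.05 (s.e. 0.42) at 6 h, 3.89 (s.e. 0.58) at 12 h and 3.06 (s.e. 0.47) at 24 h. Mir212 had 4.34 (s.e. 0.59), 3.92 (s.e. 0.85) and 2.63 (s.e. 0.63) at these times. Neither passed at 36 h or 72 h, where both groups held few counts. In Ctr 72 h replicate 2 the log2 CPM of Mir212 was 2.19, against -2.92 to -0.16 in the other controls. At SE 24 h it was 1.48, 0.34 and 2.89, so that control lay within the range of this SE group. Ovca2 and Dph1 run on the opposite strand and share 26.96% of the exonic bases of 1700016P03Rik. Dph1, a diphthamide synthesis enzyme, passed at no time, and Ovca2 passed only as lower, by -1.11 (s.e. 0.22) at 36 h and -0.71 (s.e. 0.22) at 72 h. Counting ignored strand, so reads on bases shared with Ovca2 or Dph1 in M26 were skipped too. The counts of Ovca2 and Dph1 therefore say nothing of the shared bases.

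**Figure D3:**
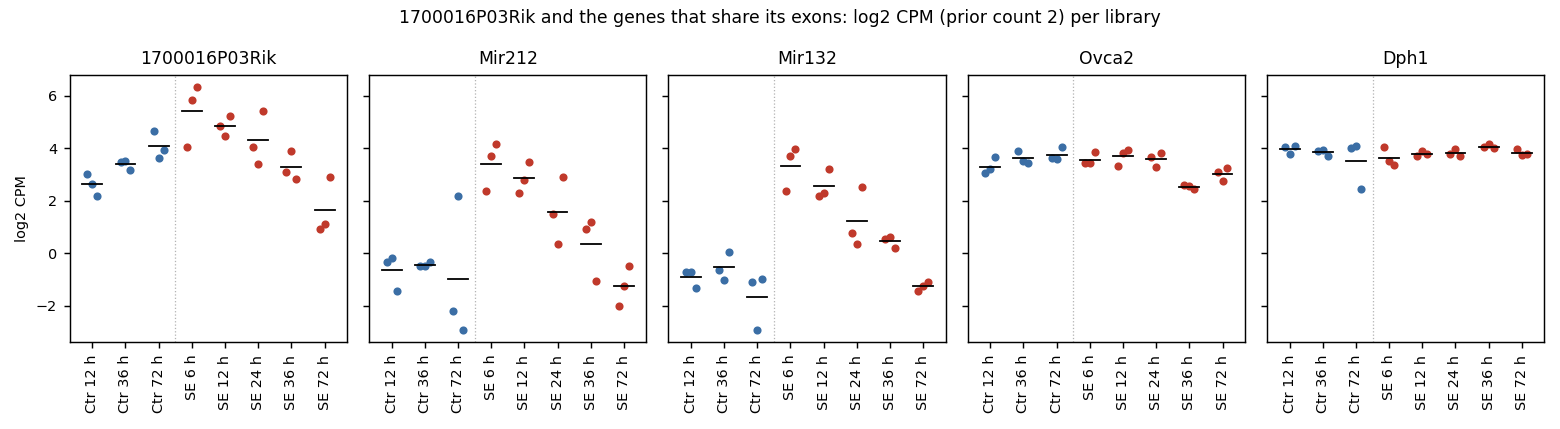
1700016P03Rik and the 4 genes that share its exons in GENCODE M39, as log2 CPM (prior count 2). Each library is shown (blue Ctr, red SE, bars are group means, common vertical axis). Mir212 and Mir132, on the same strand, were high at SE 6 h and 12 h and declined with time, and Ovca2 and Dph1, on the opposite strand, show no early rise.

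Meg3, Rian and Mirg, the maternally expressed noncoding genes of the Dlk1-Dio3 locus, were at their lowest at SE 72 h, and of the 3 only Mirg passed as higher, at 6 h and 12 h. They lie on the plus strand of chromosome 12 (GRCm39) at chr12:109506877-109538165, chr12:109570242-109628150 and chr12:109696198-109715898. Mirg held 59.1, 64.2 and 95.4 CPM at SE 12 h against 44.7, 46.0 and 34.6 CPM at Ctr 12 h. Its SE 6 h libraries held 66.2, 64.5 and 85.1 CPM, above all 9 controls (34.6 to 54.7 CPM). The share of all genes wholly above the controls at 6 h was not computed. The log2FC was 0.70 (s.e. 0.15) at 6 h and 0.80 (s.e. 0.19) at 12 h. Without SE 6 h replicate 3 the first was 0.56, and without SE 12 h replicate 3 the second was 0.57, both below the threshold. The 6 h value also did not pass with the label number range as a factor (0.53) or on thinning to the smallest library total (0.52).

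Meg3 at 72 h held 3017, 3430 and 3728 CPM in SE libraries and 6854, 5179 and 6562 CPM in Ctr libraries, a log2FC of -0.87 (s.e. 0.18). Rian at 72 h held 535, 616 and 682 CPM against 969, 878 and 1043 CPM, a log2FC of -0.658 (s.e. 0.13) that lay just inside the 0.66 limit and so did not pass. It passed with DESeq2 (-0.67) and without Ctr 72 h replicate 2 (-0.72). Mirg at 72 h held 27.1, 31.5 and 28.9 CPM against 49.6, 42.1 and 54.7 CPM, a log2FC of -0.74 (s.e. 0.20), which was -1.15 (s.e. 0.28) with the label number range as a factor. For all 3 genes every SE 72 h library lay below every Ctr 72 h library, as it did for 13.4% of all genes. Against Ctr 12 h and Ctr 36 h the values at 72 h were -0.93 for Meg3, -0.58 for Rian and -0.53 for Mirg, of which only that of Meg3 passed.

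Within SE, the 3 locus genes had adjusted p under 0.05 between 24 h and 72 h, with differences under the limit of 1. From 24 h to 72 h the log2FC was -0.55 for Meg3 (s.e. 0.17, edgeR adjusted p = 0.0257), -0.49 for Rian (s.e. 0.13, edgeR adjusted p = 0.0115) and -0.60 for Mirg (s.e. 0.20, edgeR adjusted p = 0.0285). For Mirg the difference from 12 h to 24 h was already -0.71 (s.e. 0.19, edgeR adjusted p = 0.0266), and from 12 h to 36 h it was -0.89 (s.e. 0.19, edgeR adjusted p = 0.00482). Over the first of these intervals the values were -0.11 for Meg3 (edgeR adjusted p = 0.751) and -0.08 for Rian (edgeR adjusted p = 0.742). The difference between the genes was not tested.

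Read as a ratio within each library, Mirg amounted to 0.644% of Meg3 in CPM at Ctr 12 h and 1.36% at SE 12 h (geometric means, n = 3). On the log2 scale these ratios were -7.28 ± 0.16 and -6.20 ± 0.38 (SD, n = 3), and the lowest SE 12 h library (-6.64) lay above the highest of all 9 controls (-6.91). Rian amounted to 13.7% of Meg3 at Ctr 12 h and 17.1% at SE 12 h. At SE 72 h the Mirg to Meg3 ratio of -6.86 ± 0.13 was close to that of Ctr 72 h, -6.99 ± 0.11, when both RNAs were lower.

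Apart from the group differences, libraries with more Meg3 also held more Rian. After removal of group means, Pearson's r was 0.73 over 24 libraries (permutation within groups, two-sided p = 0.0016, adjusted over 5 pairs 0.0080) and Spearman's rho was 0.67 (permutation p = 0.00578, adjusted 0.0289), and r was 0.72 without the 2 libraries farthest from the median of Meg3. For Rian and Mirg r was 0.58 (permutation p = 0.0222, adjusted 0.0555) and rho 0.57 (permutation p = 0.0191, adjusted 0.0477), so r missed and rho passed 0.05, and r was 0.60 without the 2 farthest libraries. For Meg3 and Mirg r was 0.54 (permutation p = 0.0928, adjusted 0.155) and rho 0.40 (permutation p = 0.157, adjusted 0.196), with r at 0.41 without the 2 farthest. The other 2 pairs, Neat1 with Malat1 (r = 0.04, permutation p = 0.850, adjusted 0.850, rho = 0.12, permutation p = 0.594, adjusted 0.594) and H19 with Igf2 (r = -0.26, permutation p = 0.464, adjusted 0.580, rho = -0.37, permutation p = 0.125, adjusted 0.196), did not pass, and without the 2 farthest libraries r was 0.20 and -0.24. Of the 5 pairs only Meg3 with Rian passed by both measures. All 5 pairs are neighbours at a locus, and no pair of genes from different loci was tested. The correlation of Meg3 and Rian is therefore not shown to be particular to their locus.

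**Figure D4:**
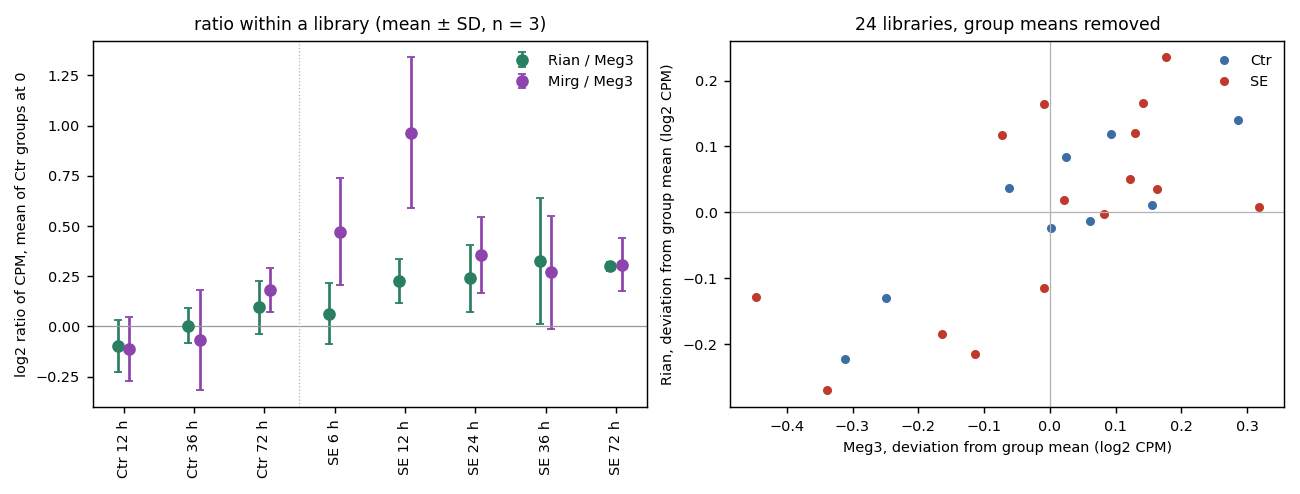
Left, log2 ratio of Rian or Mirg to Meg3 within a library for each group (mean ± SD, n = 3), with the mean of the Ctr groups set to 0. Right, deviation of Meg3 (horizontal) and Rian (vertical) from the group mean of log2 CPM in 24 libraries, blue Ctr and red SE. The Mirg to Meg3 ratio is highest at SE 12 h, and the points on the right rise together with r = 0.73.

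Other genes of the locus did not all follow. Dio3, which encodes the deiodinase that inactivates thyroid hormone at the far end of the locus, passed as lower at all 5 times, with log2FC from -2.34 at 6 h to -3.80 at 24 h. Rtl1, a retrotransposon-derived gene on the strand opposite to Rian that shares no exon with it, passed only at 72 h, with -0.95 (s.e. 0.26). Dlk1, the paternally expressed gene at the other end, passed at no time, and its value at 72 h was -1.07 (s.e. 0.56). A cAMP response element, written TGACGTCA and read on both strands, was found in the promoter of Meg3. None of the other member windows in the RefSeq promoter table held it (Bc1, Malat1, Miat, Mirg, Rian, Snhg11 and a second Meg3 start). In Meg3 the motif stood 57 bases before the start, and 588 of 32851 promoters (1.79%) held it. The window given for Mirg (chr12:109734731-109735030) contains miR-668 and so lies inside the gene, past its annotated start. H19, Neat1 and 1700016P03Rik had no entry. The Meg3 promoter is shown because the motif is the binding sequence of the CREB family, with the motif in capitals, at chr12:109540746-109541045 on the plus strand of GRCm38.p6.
Meg3 promoter: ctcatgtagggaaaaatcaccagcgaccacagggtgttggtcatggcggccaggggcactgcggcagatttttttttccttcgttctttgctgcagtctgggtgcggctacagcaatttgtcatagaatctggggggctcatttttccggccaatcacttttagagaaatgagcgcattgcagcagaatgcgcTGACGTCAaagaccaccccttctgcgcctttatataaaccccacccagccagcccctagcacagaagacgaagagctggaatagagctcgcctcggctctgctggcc
A match of letters is a description and no measure of binding. A list of 12 known CREB targets had 10 members higher at 6 h, beside 15.8% of all genes, 9 at 12 h, beside 13.9%, and 10 at 24 h, beside 14.9%. At 72 h 0 of them were higher, beside 15.2%, and 4 lower, beside 4.2%. Any action of CREB on Meg3 was not tested. Meg3 itself had log2FC of 0.22 (s.e. 0.14) at 6 h and -0.29 (s.e. 0.17) at 12 h.

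Neat1, the paraspeckle scaffold, was above controls at 6 h, 12 h and 24 h, reached into their range at 36 h and was highest at 72 h. It lies at chr19:5874736-5897132 on the minus strand, and counts per gene of polyT-selected RNA do not separate its transcripts. SE 6 h libraries held 381, 408 and 413 CPM, SE 12 h 227, 224 and 487, SE 24 h 228, 213 and 511, SE 36 h 244, 129 and 174, and SE 72 h 448, 662 and 1187 CPM. The 9 controls held 92.9 to 159 CPM, so the only SE group that entered the range of the controls was SE 36 h. Against Ctr of the same time, 24.5% of all genes lay wholly above at 12 h and 19.4% at 72 h. The log2FC was 1.76 (s.e. 0.27), 1.52 (s.e. 0.36), 1.43 (s.e. 0.27), 0.83 (s.e. 0.35) and 2.38 (s.e. 0.37) from 6 h to 72 h, and that at 36 h did not pass by edgeR. At 36 h every SE library lay above every Ctr 36 h library, as it did for 25.8% of all genes, and the value passed with DESeq2 (0.85), with library size only (0.95), with the replicate block (0.85), with the compared groups only (0.84) and without Ctr 72 h replicate 2 (0.84). The 24 h value was 0.93 (s.e. 0.38) and did not pass with the label number range as a factor, and it was 0.90 and passed without SE 24 h replicate 3.

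The late rise of Neat1 was tested within SE, on libraries also used to choose the members. From 36 h to 72 h the log2FC was 2.07 (s.e. 0.36, edgeR adjusted p = 0.00134), and without SE 72 h replicate 3, the highest library, it was 1.61 and still passed. From 24 h to 72 h it was 1.26 (s.e. 0.35, edgeR adjusted p = 0.0128), and without that library 0.81, below the limit of 1. This second call was also lost without SE 24 h replicate 1 (1.08) or replicate 2 (1.04) and with the compared groups only (1.26, s.e. 0.44). In both SE 12 h and SE 24 h replicate 3 stood well above the other libraries. At 72 h all 8 microglial markers passed as higher, beside 15.2% of all genes. They summed to 1250 to 1814 CPM against 306 to 400 CPM in Ctr 72 h, and their part in the Neat1 value was not tested. At 6 h the same markers summed to 210 to 235 CPM against 306 to 401 CPM in all controls. The 8 astrocyte markers summed to 12870 to 14405 CPM at SE 72 h against 4890 to 5692 CPM in Ctr 72 h. Of these, 3 passed as higher and 0 as lower at 72 h. The part of either cell type in the Neat1 values was not tested. Of 12 genes for paraspeckle proteins, 1 passed as higher at 6 h, Rbm14 (1.20, s.e. 0.17), beside 15.8% of all genes. None passed at the other 4 times.

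Malat1, a nuclear speckle RNA transcribed 21133 bases from Neat1 on the same strand (chr19:5845717-5853602), changed less. SE 24 h libraries held 661, 472 and 671 CPM and SE 36 h libraries 584, 589 and 597 CPM, against 351, 299 and 415 CPM in Ctr 36 h and 277 to 490 CPM in all controls. The log2FC was 0.69 (s.e. 0.15) at 24 h and 0.73 (s.e. 0.19) at 36 h. The other values, 0.42 (6 h), 0.21 (12 h) and 0.15 (72 h), did not pass. The 24 h value fell below the limit of 0.66 when any of 5 libraries was left out (Ctr 12 h replicate 2, Ctr 36 h replicate 2, Ctr 72 h replicate 1, SE 24 h replicate 1 or 3), with values from 0.60 to 0.65. Leaving out Ctr 36 h replicate 2 took the 36 h value to 0.62. Between SE time points no Malat1 value passed, the smallest edgeR adjusted p being 0.0710, from 12 h to 36 h with a log2FC of 0.52. Frmd8, the protein-coding gene next to Neat1, passed as higher at all 5 times, with log2FC from 0.70 at 6 h to 1.43 at 24 h.

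Miat, a neuronal nuclear RNA, was lower than in controls from 12 h after SE on. It lies at chr5:112361094-112377261 on the minus strand. Ctr libraries held 682 to 1072 CPM. SE 6 h libraries held 624, 731 and 730 CPM, at the lower edge of that range. SE 12 h libraries held 391.9, 249 and 375 CPM, SE 24 h 480, 429 and 341, SE 36 h 384, 315 and 346, and SE 72 h 499, 406 and 410 CPM, all below every control. The log2FC was -0.32, -1.35, -1.06, -1.47 and -0.84 from 6 h to 72 h, with s.e. from 0.14 to 0.17. With the label number range as a factor the 72 h value was -0.67 (s.e. 0.24) and did not pass. Between 6 h and 12 h after SE the fall was -1.04 (s.e. 0.17, edgeR adjusted p = 0.00305). Leaving out SE 6 h replicate 2 or 3 or SE 12 h replicate 2 brought the size of that fall under 1, to -0.86 at the least. Gm26953, on the opposite strand, covers 32.56% of the exonic bases of Miat and held at most 1.199 CPM in any library. Reads on the shared bases are counted for neither gene where both are annotated, so this count says nothing of the overlap.

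Snhg11, a neuronal RNA that hosts 2 snoRNA genes and ranked 5th of all genes by mean CPM in controls, passed as lower at every time from 12 h except 24 h. It lies at chr2:158217558-158228071 on the plus strand. Ctr libraries held 2955 to 4088 CPM, SE 6 h 3461, 3204 and 3750 CPM, and SE 12 h 2170, 2127 and 2505 CPM. At 36 h SE libraries held 2430, 2501 and 2036 CPM and at 72 h 1753, 2248 and 2155 CPM. From 12 h every SE library lay below all controls. For 23.2% of all genes SE 12 h lay wholly below Ctr 12 h, with 26.2% at 36 h and 13.4% at 72 h. The log2FC was -0.12, -0.73, -0.48, -0.78 and -0.80 from 6 h to 72 h, with s.e. from 0.10 to 0.12. Without Ctr 12 h replicate 2 the 12 h value was -0.64 and did not pass, and with library size only the 36 h value was -0.656 and did not pass. Between 6 h and 12 h it was -0.62 (s.e. 0.12, edgeR adjusted p = 0.00835) and between 24 h and 72 h -0.40 (s.e. 0.12, edgeR adjusted p = 0.0213), both smaller than the limit of 1. Over the 8 group means, Miat and Snhg11 had a Pearson's r of 0.93, given as a description.

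The summed level of neuronal markers was lower at the same times, though few of them passed. The 12 neuronal markers summed to 12998 to 19867 CPM in controls and to 9838 to 11332 CPM at SE 12 h and 9851 to 9928 CPM at SE 72 h. Of the 12 markers, 3 passed as lower and 1 as higher at 12 h, and 3 and 0 at 72 h, with median log2FC of -0.41 and -0.40, beside 11.4% of all genes lower and 13.9% higher at 12 h and 4.2% and 15.2% at 72 h. The 6 interneuron markers went the other way at 12 h, with a sum of 901 to 1327 CPM against 659 to 795 CPM in Ctr 12 h and 1 passing as higher, and at 72 h summed to 376 to 638 CPM against 517 to 813 CPM with 2 passing as lower. In bulk tissue, fewer neurons and less of these RNAs per neuron cannot be told apart, and the part of the markers in these values was not tested.

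Bc1 varied more between control libraries than any other member except H19. Ctr 12 h libraries held 764, 696 and 2161 CPM, Ctr 36 h 1194, 716 and 751, and Ctr 72 h 3247, 3332 and 8376 CPM. SE 72 h libraries held 522, 612 and 873 CPM, below all Ctr 72 h libraries and inside the range of the other controls. Of all genes, 13.4% lay wholly below Ctr 72 h in SE 72 h. The log2FC at 72 h was -2.90 (s.e. 0.74). With Ctr 12 h and Ctr 36 h in place of Ctr 72 h it was -0.66 (s.e. 0.61) and did not pass.

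The Ctr 72 h libraries were all in the last range of label numbers and include the 2 shallowest of the series, and with the range as a factor the 72 h value of Bc1 was -2.49 (s.e. 1.14) and did not pass. Between Ctr 72 h and Ctr 36 h the log2FC of Bc1 was 2.48 (s.e. 0.73, edgeR adjusted p = 0.0625), and DESeq2 counted it as changed. SE 24 h libraries held 696, 407 and 435 CPM, a log2FC of -1.77 (s.e. 0.63) against all Ctr that passed, though not without Ctr 72 h replicate 3 (-1.60), SE 24 h replicate 2 (-1.63) or SE 24 h replicate 3 (-1.67), nor with the label number range as a factor (-1.30). Single libraries were high in other SE groups, 3132 CPM in SE 6 h replicate 2 and 2790 CPM in SE 36 h replicate 2, against 331 and 624 CPM and 721 and 440 CPM in their groups. Without SE 6 h replicate 2 the 6 h log2FC went from -0.40 to -1.87 and passed as lower. Between SE time points no Bc1 value passed, and the smallest edgeR adjusted p was 0.352.

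Across the tests within SE, few members passed the limit of 1. Miat passed from 6 h to 12 h, beside 1.34% of all genes, Neat1 from 36 h to 72 h, beside 4.13%, and H19, Neat1 and 1700016P03Rik from 24 h to 72 h, beside 10.9%. By edgeR, 0 members passed from 12 h to 24 h, beside 3.18% of genes, from 24 h to 36 h, beside 0.529%, and from 12 h to 36 h, beside 6.16%. At an unadjusted p under 0.05 these intervals held 3, 2 and 4 of the 10 members, beside 4474, 3015 and 5574 of all 18153 genes tested. DESeq2 made no call among the members in the first 2 of these intervals and called 1700016P03Rik in the third, and limma-voom made none in any. Between Ctr groups edgeR called 0 members, beside 0% of genes for 36 h against 12 h, 1.96% for 72 h against 36 h and 0.931% for 72 h against 12 h. At an unadjusted p under 0.05 these contrasts held 0, 2 and 3 of the 10 members, beside 648, 3876 and 3500 of the 18153 genes. DESeq2 called Bc1 in the second contrast and H19 in the third, and limma-voom called no member.

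Other noncoding host and named lncRNA genes were listed by name, with earlier results of these data known, so their counts are a description. Of all genes, 15.8% passed as higher and 6.21% as lower at 6 h, and 13.9% and 11.4% at 12 h. At 72 h the shares were 15.2% and 4.2%. Of 15 snoRNA host transcripts tested, 7 passed as higher and 0 as lower at 6 h, led by Snhg15 (2.00, s.e. 0.21) and Snhg1 (1.82, s.e. 0.20), and 2 and 0 at 72 h. Their median log2FC was 0.62 at 6 h against 0.06 for all genes. Of 10 noncoding microRNA hosts, Mir17hg, host of the miR-17 to miR-92 cluster, passed as higher from 6 h to 36 h (2.06, s.e. 0.31, at 6 h), as did Mir22hg (1.03, s.e. 0.15, at 6 h), and Ftx, a gene near Xist, passed as lower over the same times (-1.11, s.e. 0.18, at 6 h). Of 15 other named lncRNA genes 1 passed as higher and 7 as lower at 12 h, with A330008L17Rik at -2.28 (s.e. 0.33) and Lncpint at 1.77 (s.e. 0.52). Of 15 genes of the imprinted gene network, 5 passed as higher at 6 h, H19 and Asb4 (1.91, s.e. 0.43) among them, and 1 as higher and 3 as lower at 72 h. That list includes the members H19 and Meg3, which were chosen on these same contrasts.

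The genes whose 8 group means were most like those of a member, among 13750 genes whose mean log2 CPM reached 1, were Card19, Blnk and Adamtsl3 for H19 (Pearson's r from 0.98 to 0.99) and Ttc3, Snhg14 and Hdac11 for Miat (r 0.99). Those for Snhg11 were Thrb and Eno2 (r from 0.98 to 0.99), for Meg3 Etnk1, Eml5 and Plpp6 (r 0.97), for Rian Impact, Far1 and Dusp8 (r from 0.96 to 0.98) and for Mirg Rims4, Tbc1d23 and Morf4l2 (r from 0.98 to 0.99). For Neat1 they were Hmgb2, Dazap2 and Trp53inp2 (r from 0.96 to 0.97), for Malat1 She, Angptl2 and Snrpb (r from 0.97 to 0.98), for 1700016P03Rik Fbxo42, Nufip1 and Gm49593 (r 0.97), and for Bc1 Bod1, Spire2 and Slc18a2 (r from 0.93 to 0.97). Among the members themselves Meg3 and Rian were most alike (r = 0.94), and Mirg was most like 1700016P03Rik (r = 0.92). With 8 points and 13750 genes searched, these are descriptions only.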

How the data were processed

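RNA of microdissected CA1 was polyT-selected, made into unstranded TruSeq v2 libraries and sequenced. Per the labels and methods, the authors trimmed reads with Trim Galore 0.6.6, aligned them to GRCm39 with STAR 2.7.8a and counted them per GENCODE M26 gene with HTSeq 0.13.5 without strand, merging lanes and leaving out low genes with consensusDE. The deposited table holds raw counts of 18647 genes in 24 libraries. Counting skips reads that touch exons of more than 1 gene. Symbols and exonic lengths came from GENCODE M39, which matched 18552 genes.

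Counts were fitted in edgeR 4.0.16 (R 4.3.3, quasi-likelihood, TMM, low counts filtered over 8 groups, 1 RUVr factor of unwanted variation, all libraries in 1 fit), with Benjamini-Hochberg adjustment over 18153 genes. CPM are TMM-scaled, and log2 CPM used a prior count of 2. Standard errors were derived from log2FC and the F statistic. On counts simulated for SE 12 h against Ctr 12 h, 48 of 100 genes changed 2-fold and 92 of 100 changed 4-fold were recovered, with 6 false calls among 17705 genes. Alternatives were DESeq2 1.42.0, limma-voom 3.58.1, other scalings, filters, factors, thinning and omission of each library. Correlations used 100000 permutations.

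Groups came from the sample titles. No 2 libraries were identical. Members and lists were chosen with earlier results of these data known. All members were named. Other genes were named as list members that passed (up to 6 by size), by likeness (3 per member, of which 1 is not reported here), or as overlapping or nearest genes.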

Additional observations from a re-analysis of the deposited data

How the results depend on the processing

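Over all settings tried, no log2FC of a member that passed the threshold against Ctr or between SE times changed sign. The number of members past the threshold moved by more than 1.5 times as follows. With the label number range as a factor it was 3 at 24 h against all Ctr and 1 from 12 h to 36 h. From 6 h to 12 h it was 0 with library size only and 0 with the compared groups only and no RUVr factor. DESeq2 gave 2 from 36 h to 72 h, as did limma-voom, and 1 from 12 h to 36 h, for Ctr 72 h against Ctr 36 h and for Ctr 72 h against Ctr 12 h. From 12 h to 36 h it was also 1 with at least 10 counts in every library and with the compared groups only. Without the log2FC limit it was 2 from 6 h to 12 h, 1 from 12 h to 24 h, 2 from 36 h to 72 h, 1 from 12 h to 36 h and 7 from 24 h to 72 h. H19 drops out under the filter of 10 counts. With Ctr 12 h and Ctr 36 h in place of Ctr 72 h, a setting chosen after seeing the data, 5 members passed at 72 h in place of 8. The cause was not tested.

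Leaving out single libraries gave 3 to 6 members at 24 h (3 without SE 24 h replicate 3), 0 to 1 from 6 h to 12 h, 1 to 2 from 36 h to 72 h, 0 to 2 from 12 h to 36 h, 0 to 2 for Ctr 72 h against Ctr 36 h and 0 to 1 for Ctr 72 h against Ctr 12 h. The correlation of Rian and Mirg ranged from 0.46 to 0.72 and passed in 4 of 24 omissions. That of Neat1 and Malat1 ranged from -0.0847 to 0.17 (-0.00897, -0.0847 and -0.0830 without Ctr 72 h replicate 1, SE 24 h replicate 2 and SE 24 h replicate 3) and was -0.10 with library size only.

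Replicate numbers are not stated to pair samples, and same-numbered SE and Ctr libraries correlated in their deviations from -0.20 to 0.18, so they share only a number. With the replicate block the counts were 4 (6 h), 6 (12 h), 5 (24 h), 5 (36 h) and 8 (72 h), the call of 1700016P03Rik at 24 h being lost and Neat1 at 36 h gained. Depth limits H19 in controls, where Ctr 72 h replicate 3 held 2663936 counts.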
